A study of Mus musculus with 6 samples.

Results

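A set of 10 genes of protein folding in the endoplasmic reticulum (ER) and of the unfolded protein response were followed in whole mouse hearts at embryonic day 9.5: Hspa5, Hsp90b1, Sdf2l1, Dnajb9, Calr, Canx, Pdia4, Herpud1, Xbp1 and Atf6. They were chosen by symbol, with earlier results of these data known. All 10 were found, each as 1 row of the 30323 gene IDs in the deposited table. The hearts with a myocardial knockout of Cdc42 (MCKO) gave 3 RNA libraries and the control hearts 3. The labels give the knockouts as CDC-42 KO and the controls as C57BL/6 ctrl, and the design text speaks of 3 hearts per set. The Cre driver, the targeted allele, the strain of the knockouts and any allele that the controls share with them are not stated in the labels. Nothing ties a library to 1 heart or 1 litter, so the p-values measure only the spread between these libraries, which may be technical. The comparison asks how the transcripts of the ER folding machinery differ when heart muscle lacks this small GTPase, a switch that organises actin and cell polarity.

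Secreted and membrane proteins fold in the ER with the help of chaperones, glycan-binding lectins and disulfide isomerases, and proteins that fail to fold are sent back to the cytosol for degradation. When unfolded proteins build up, 3 membrane sensors start the unfolded protein response. ATF6 is cut to release a transcription factor, IRE1 (gene Ern1) splices Xbp1 mRNA so that it encodes an active factor, and PERK (gene Eif2ak3) slows translation while ATF4 is made. ATF6 and XBP1 act on the chaperone and degradation genes through the ER stress response element (ERSE), whereas ATF4 can also be induced by other kinases that sense lack of amino acids or haem. Counts per gene show neither the cleavage of ATF6 nor the splicing of Xbp1 mRNA.

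The libraries held 23883877 to 34246477 estimated counts in MCKO and 19256840 to 32169289 in controls, and levels are given as CPM, the count scaled to a library total of 1000000. Cdc42 was lower in MCKO, at 247.6, 240.8 and 238.5 CPM against 398.8, 377.3 and 423.7 CPM in controls (-0.66 on the log2 scale, SE 0.047, adjusted p = 2.93e-06 by edgeR). The muscle genes Actc1 and Myh7 were abundant in all 6 libraries, Actc1 at 11102 to 11565 CPM in MCKO and 9661 to 10518 CPM in controls. Myh7 was at 9778 to 10315 CPM in MCKO and 5822 to 6667 CPM in controls. Both were called higher in MCKO, at 0.23 and 0.74 on the log2 scale, while Myh6 was not called. Of 14697 genes tested with edgeR's quasi-likelihood test, 58.4% were called at a Benjamini-Hochberg adjusted p under 0.05, 29.3% higher and 29.1% lower in MCKO.

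Hspa5, Calr, Sdf2l1, Pdia4 and, by less, Hsp90b1 were lower in MCKO hearts, and the degradation gene Herpud1 was higher. Of the 10 genes, 5 were called lower, 1 was called higher, and Canx, Xbp1, Atf6 and Dnajb9 were not called. The share called in either direction, 6 of 10, is near the 58.4% of all tested genes and is no result about these genes. The 5 of 10 called lower stand beside 29.1%, and the 1 of 10 called higher beside 29.3%. The genes were chosen with earlier results of these data known, so these shares describe the set and test nothing. The median log2 fold change was -0.19 over the 10 genes and 0.00057 over all tested genes. In CPM, MCKO and control libraries were fully apart for 8 of the 10 genes, against 65.5% of tested genes. Together the 10 genes took 0.397 to 0.401% of the counts of an MCKO library and 0.528 to 0.561% of a control library. Less RNA of a gene per cell and fewer cells that express it cannot be told apart in whole hearts.

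**Figure D1:**
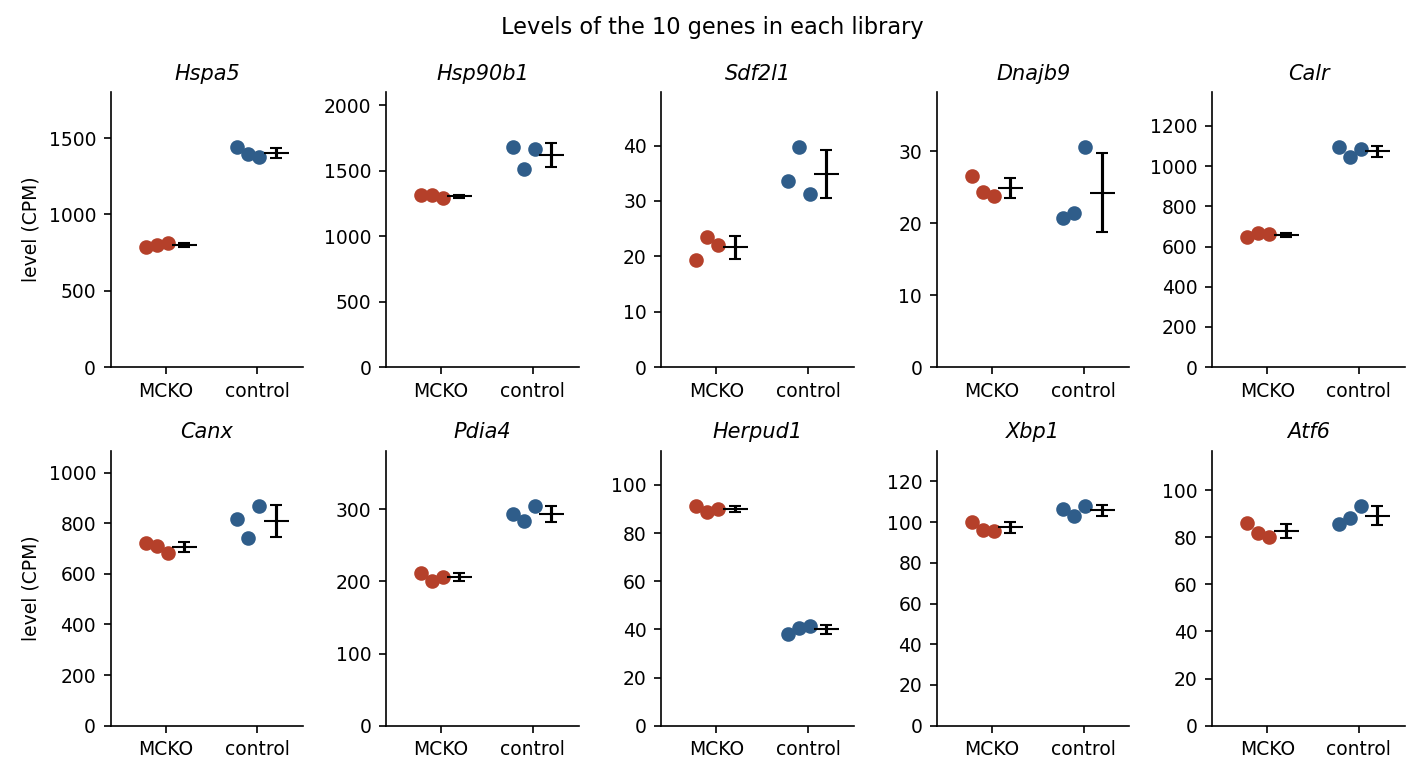
Level of each of the 10 genes in CPM (vertical axes, starting at 0) in the 3 MCKO and 3 control libraries; points are libraries, and the bar beside them is the mean with the SD. Hspa5 was at 787 to 811 CPM in MCKO and 1376 to 1442 CPM in controls, Herpud1 at 88.6 to 91.5 CPM in MCKO and 38.0 to 41.3 CPM in controls, and the Dnajb9 and Atf6 libraries of the groups overlap.

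Hspa5 encodes BiP, the HSP70 chaperone of the ER lumen that also holds the stress sensors inactive. It was measured at 787.0, 800.5 and 810.9 CPM in MCKO and at 1442, 1395 and 1376 CPM in controls. Every MCKO library was below every control library, and the spread within each group was small beside the gap. The fitted change was -0.75 on the log2 scale (SE 0.038, adjusted p = 3.69e-07 by edgeR), the largest fall among the 10 genes, and 6.99% of tested genes had a lower fold change. The gene (ENSMUSG00000026864) lies on the plus strand of chromosome 2 at 34771970 to 34777547 in GRCm38. Its promoter is shown because the ERSE was first described in genes of this family. The RefSeq window of 250 bases before to 50 after the start, chr2:34771840-34772139 on the plus strand of GRCm38.p6, holds 1 match to ERSE, in capitals.
Hspa5: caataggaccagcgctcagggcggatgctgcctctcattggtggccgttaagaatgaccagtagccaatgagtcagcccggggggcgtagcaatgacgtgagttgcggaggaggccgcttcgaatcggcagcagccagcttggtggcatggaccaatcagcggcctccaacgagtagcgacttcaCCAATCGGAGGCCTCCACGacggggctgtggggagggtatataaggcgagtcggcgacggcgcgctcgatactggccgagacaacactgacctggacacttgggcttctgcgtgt

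Hsp90b1 encodes GRP94, the HSP90 chaperone of the ER, which folds a narrower set of clients that includes integrins and Toll-like receptors. Its levels were 1314, 1313 and 1294 CPM in MCKO and 1682, 1516 and 1664 CPM in controls. The groups did not overlap, but control replicate 2 was the control nearest to MCKO. The fitted change was -0.25 on the log2 scale (SE 0.044, adjusted p = 0.00107 by edgeR), a smaller fall than that of Hspa5. The gene (ENSMUSG00000020048) spans 86690209 to 86705509 of chromosome 10, minus strand, and the pseudogene 1810014B01Rik, which overlaps 4598 bases of it on the opposite strand, held 34 to 80 counts per library.

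Co-chaperones tune the ATPase cycle of BiP. Sdf2l1 encodes an ER protein that works with ER J-domain proteins to keep BiP clients soluble. It had 19.4, 23.5 and 22.02 CPM in MCKO and 33.6, 39.7 and 31.3 CPM in controls. All MCKO libraries were lower than all controls, with a wider spread than for the abundant chaperones, and the fitted change was -0.62 on the log2 scale (SE 0.10, adjusted p = 0.000926 by edgeR). The gene (ENSMUSG00000022769) spans 17130138 to 17132383 of chromosome 16, minus strand.

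Dnajb9 encodes ERdj4, a J-domain protein that recruits BiP to IRE1 and is itself a target of XBP1. It had 26.5, 24.3 and 23.9 CPM in MCKO and 20.7, 21.5 and 30.6 CPM in controls. Control replicate 3 was the highest of the 6 libraries while the other controls were the lowest. The fitted change was 0.09 on the log2 scale (SE 0.15, adjusted p = 0.618 by edgeR) and depended on that library, being 0.30 (edgeR adjusted p = 0.00299) without control replicate 3 and -0.017 (edgeR adjusted p = 0.929) without control replicate 1. The gene (ENSMUSG00000014905) spans 44205559 to 44210326 of chromosome 12, minus strand.

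Calreticulin and calnexin are lectins that bind the same trimmed glycan on new glycoproteins, one in the lumen and the other in the membrane, and both bind calcium. Calr, which encodes calreticulin, is required for heart development in mice. It had 647.9, 665.4 and 660.4 CPM in MCKO and 1095, 1044 and 1084 CPM in controls. The groups were far apart, and the fitted change was -0.65 on the log2 scale (SE 0.037, adjusted p = 7.58e-07 by edgeR). Calr (ENSMUSG00000003814) spans 84841850 to 84846934 of chromosome 8, minus strand.

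Canx, which encodes calnexin, had 722.4, 708.5 and 683.8 CPM in MCKO and 816.2, 743.5 and 870.2 CPM in controls. Control replicate 2 was the control nearest to MCKO, and the gap between the groups was small beside the spread of the controls. The log2 fold change was -0.14 (SE 0.055) and missed the threshold (edgeR adjusted p = 0.0534). It passed without control replicate 2, at -0.20 (edgeR adjusted p = 0.00334), and with 3 other choices of size factors or test that are given with the processing alternatives. Canx (ENSMUSG00000020368) spans 50293961 to 50325673 of chromosome 11, minus strand.

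Pdia4 encodes ERp72, a disulfide isomerase of the ER lumen. Its levels were 211.2, 200.5 and 205.4 CPM in MCKO and 292.8, 283.4 and 305.1 CPM in controls, with no overlap. The fitted change was -0.45 on the log2 scale (SE 0.042, adjusted p = 1.63e-05 by edgeR). Pdia4 (ENSMUSG00000025823) spans 47796141 to 47813430 of chromosome 6, minus strand.

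Herpud1 encodes HERP, an ER membrane protein with a ubiquitin-like domain that assembles the degradation complex around the ubiquitin ligase HRD1. It was the 1 gene of the 10 called higher, with 91.5, 88.6 and 90.0 CPM in MCKO and 38.0, 40.6 and 41.3 CPM in controls. Every MCKO library was above every control, and the SD was 1.41 CPM in MCKO and 1.73 CPM in controls. The fitted change was 1.23 on the log2 scale (SE 0.048, adjusted p = 7.28e-08 by edgeR), a 2.35-fold difference. A higher log2 fold change was seen in 5.25% of tested genes, a share that leaves out falls. Herpud1 (ENSMUSG00000031770) spans 94386438 to 94395377 of chromosome 8, plus strand, and an antisense transcript gene, Gm15890, overlaps 535 bases of it in GENCODE M21. The promoter is shown because Herpud1 moved against the chaperones. Its window, chr8:94386179-94386478 on the plus strand, holds in capitals, from left to right, a reverse-complement match to TGATGNAA, a shortened form of the ATF4 element that was added after the windows were seen, and a match to ERSE-II, a shorter variant of ERSE. The full ATF4 element TGATGNAAT was not matched in it.
Herpud1: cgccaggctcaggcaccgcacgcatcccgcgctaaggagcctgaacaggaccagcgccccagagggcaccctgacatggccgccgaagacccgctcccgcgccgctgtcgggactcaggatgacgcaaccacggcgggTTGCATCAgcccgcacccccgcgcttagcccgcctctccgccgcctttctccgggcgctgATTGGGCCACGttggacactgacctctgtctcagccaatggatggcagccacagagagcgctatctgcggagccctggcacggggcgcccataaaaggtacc

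The transcription factor genes were near equal in level between the groups. Xbp1 had 100.3, 96.4 and 95.6 CPM in MCKO and 106.4, 103.0 and 108.2 CPM in controls. The groups did not overlap in CPM, but the fitted change of -0.058 on the log2 scale was not called (SE 0.042, adjusted p = 0.259 by edgeR). Scaled to library totals alone it was -0.12 (edgeR adjusted p = 0.0372). Xbp1 (ENSMUSG00000020484) spans 5520659 to 5525893 of chromosome 11, plus strand. Atf6 had 86.1, 81.9 and 79.9 CPM in MCKO and 85.7, 88.1 and 93.4 CPM in controls, which overlap. The fit gave -0.046 on the log2 scale (SE 0.049, adjusted p = 0.446 by edgeR). Atf6 (ENSMUSG00000026663) spans 170704674 to 170867771 of chromosome 1, minus strand.

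**Figure D2:**
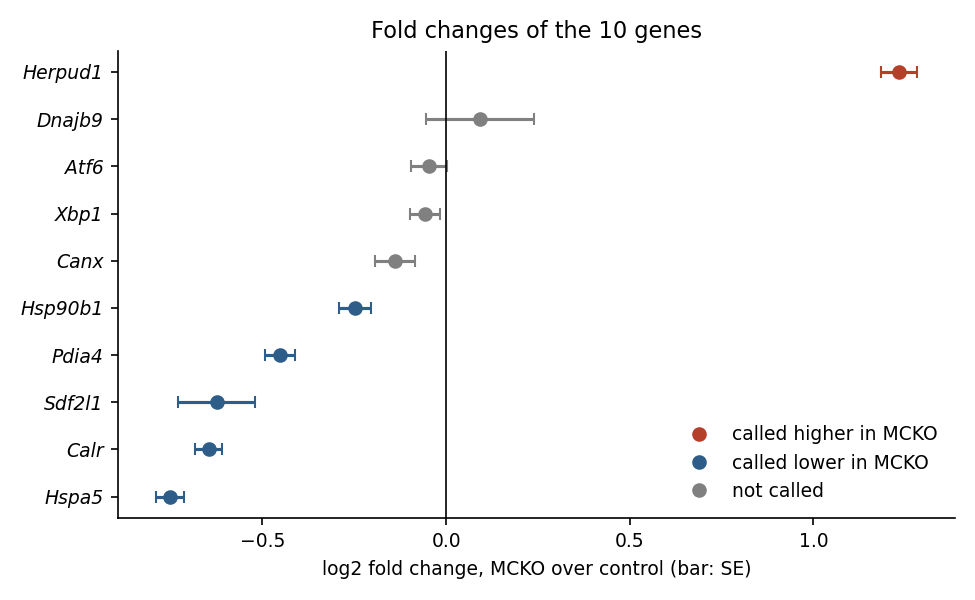
Fitted log2 fold change of each gene, MCKO over control, on the horizontal axis, with bars of 1 SE; colour gives the call at an adjusted p under 0.05. Herpud1 stands at 1.23, the 5 genes called lower lie between -0.75 and -0.25, and 4 genes lie between -0.14 and 0.09 and were not called.

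Levels of different genes were compared per kilobase of the longest annotated coding transcript. On this scale Hsp90b1 was the most abundant of the 10 in both groups, at 463 CPM per kb in MCKO and 574 in controls, followed by Calr at 301 in MCKO and 492 in controls and by Hspa5 at 218 in MCKO and 382 in controls. Canx followed at 165 CPM per kb in MCKO and 189 in controls. Dnajb9 and Atf6 were the least abundant, at 10.1 and 11.4 CPM per kb in MCKO and 9.86 and 12.3 in controls. Herpud1 was level with Xbp1 in MCKO, at 46.1 and 45.8 CPM per kb, where in controls it was at 20.5 and Xbp1 at 49.7. The transcripts in use are not given in the sources, so these levels are approximate.

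Counts of the other 9 genes were set against those of Hspa5 in the same library, a ratio that does not depend on scaling between libraries. Hspa5 fell most, which fixes the direction of the ratios, so they are given as a description of how far each gene departed from Hspa5. There were 11.6, 11.1 and 11.1 Herpud1 counts per 100 Hspa5 counts in MCKO, against 2.64, 2.91 and 3.0 in controls, a difference of 1.98 on the log2 scale. For Hsp90b1 there were 167, 164 and 160 per 100 in MCKO and 117, 109 and 121 in controls, a difference of 0.50. Calr moved most like Hspa5, with 82.3, 83.1 and 81.4 per 100 in MCKO and 76.0, 74.8 and 78.8 in controls, a difference of 0.11. The ratio of Sdf2l1 to Hspa5 overlapped between the groups, and the other 8 did not. The share of all tested genes that would separate in this way was not computed, so this count is no result about these genes. For those 8 the exact 2-sided permutation test gave p = 0.1, the smallest that 3 against 3 libraries can give, and 0.113 adjusted over the 9 ratios, so that no ratio could pass the 0.05 threshold. For Sdf2l1 the exact permutation test gave p = 0.3.

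**Figure D3:**
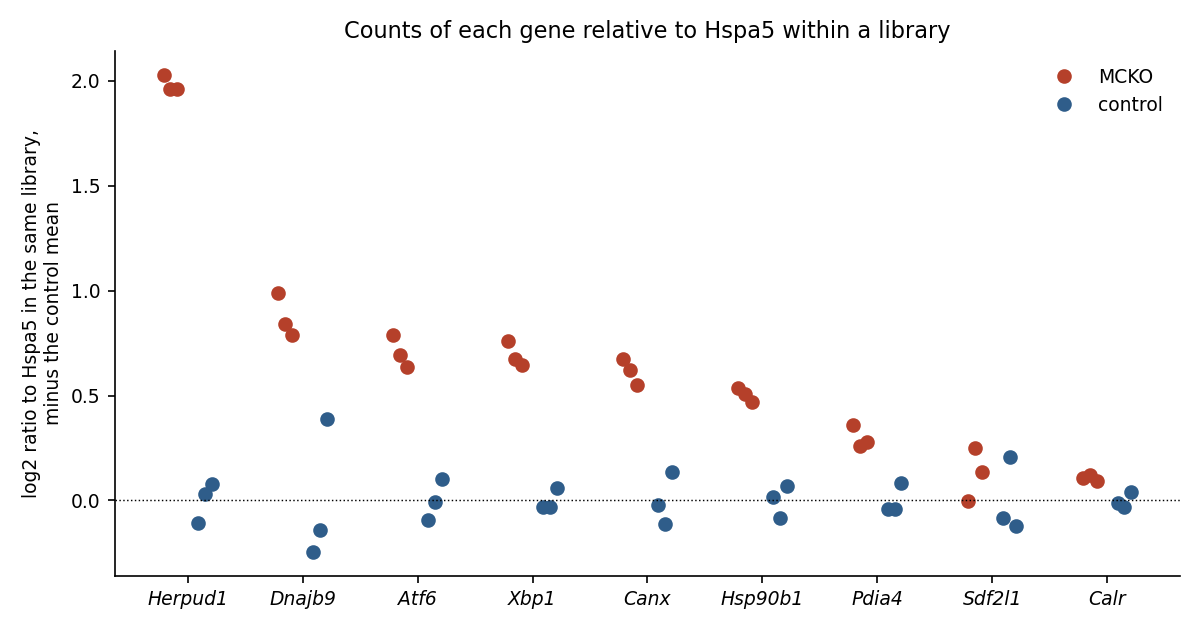
Log2 ratio of each gene's counts to those of Hspa5 in the same library, minus the mean of the controls (vertical axis), for the 3 MCKO and 3 control libraries. Herpud1 lies 1.98 above the controls on average, Calr 0.11, and the Sdf2l1 libraries of the groups overlap.

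Promoter windows of 9 of the 10 genes were found in the RefSeq table, and Atf6 was not. Both strands were searched for ERSE, whose ends CCAAT and CCACG are separated by 9 bases. It was matched in Hspa5, Hsp90b1, Calr and Canx, against 0.119% of all 32851 windows. Hsp90b1 held a pair of matches and the others 1 each. Because ERSE was first described in genes of this family, these matches are a description and test nothing. The matched letters are given as they stand in windows written along the gene, and 2 of the matches read in the reverse direction. They are shown because the fitted changes of these genes were unequal, and no difference between the genes was tested.
Hspa5: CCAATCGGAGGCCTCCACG
Hsp90b1, distal: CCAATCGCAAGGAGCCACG
Hsp90b1, proximal, reverse: CGTGGTGAGGCACGATTGG
Calr, reverse: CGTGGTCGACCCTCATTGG
Canx: CCAATCACCACGCTCCACG

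The first base of the match lay 65 bases before the start in Hspa5, 212 and 107 before it in Hsp90b1, 162 in Calr and 145 in Canx. Of these 4 genes, 3 were called lower and Canx was not called. ERSE-II (ATTGGNCCACG) was matched in Herpud1 alone of the 9, 52 bases before the start, and in 0.037% of all windows. TGACGTGG, the element to which both ATF6 and XBP1 bind, was matched in none of the 9 and in 0.676% of all windows, and the ATF4 element TGATGNAAT in none and in 0.965%. The shorter TGATGNAA was matched in Herpud1 alone of the 9, 112 bases before the start, and in 3.969% of all windows. Of 294 other tested genes with that shorter form 32.3% were called higher, near the 29.3% of all tested genes. The hypoxia core ACGTG was matched in Hspa5, Dnajb9, Herpud1 and Calr and in 19.625% of all windows. The CCACG end alone, which every ERSE match contains, was found in 8 of the 9 and in 32.769% of all windows. The windows of Sdf2l1, Pdia4, Dnajb9 and Xbp1 held no exact match to ERSE or ERSE-II. The search allowed no mismatch, so imperfect elements were not counted. A match is a run of letters, not a bound site.

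**Figure D4:**
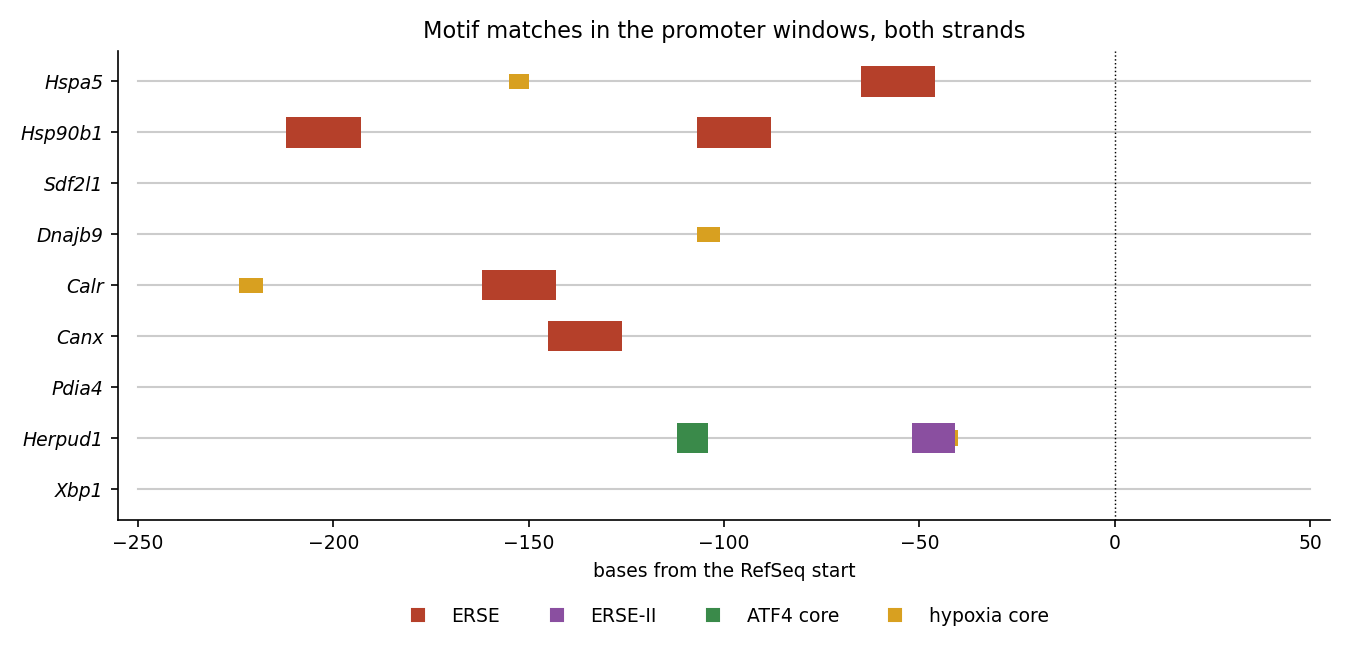
Matches to ERSE, ERSE-II, the ATF4 core and the hypoxia core in 9 promoter windows, placed by distance in bases from the RefSeq start (horizontal axis, gene names on the vertical axis). ERSE matches begin 65 to 212 bases before the start in 4 genes, and Herpud1 has an ERSE-II match at 52 and an ATF4 core match at 112 bases before it.

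Genes outside the 10 whose windows hold ERSE were described in the same way. In all, 37 genes had a match, of which 20 were tested, and 11 of these were called lower and 4 higher, with a median log2 fold change of -0.27. Without the 4 genes above, 8 of 16 were called lower and 4 higher, beside 29.1% and 29.3% of all tested genes. Those called lower were Creld2, Dnajc3 and Pdia6, which act in ER folding, Alg12, a mannosyltransferase of N-glycan assembly, the calreticulin-related Calr4, Acacb, Hnrnpa3 and Spats2l. Creld2 had the largest fall of these after Calr4, at 28.9 ± 1.97 CPM in MCKO and 59.3 ± 2.32 CPM in controls (SD, n = 3 each). Calr4 was scarce, at 0.080 ± 0.039 CPM in MCKO and 0.664 ± 0.091 CPM in controls. Alg12 and Creld2 begin near each other on opposite strands of chromosome 15, at 88819318 and 88819646. Since both strands were searched, the same match may be counted for both genes. Those called higher were Adcy3, Zfp57 and the related X-linked genes Xlr3a and Xlr3b, whose reads may be divided between copies. Of 8 tested genes with ERSE-II, 3 were called higher, Herpud1, Rbm39 and Lrif1, and 2 lower, Dnajb11 and Rcl1. Without Herpud1 these were 2 higher and 2 lower of 7, 28.6% each way, near the shares of all tested genes.

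The neighbouring parts of the pathway were read from lists of genes by role. Each count is to be read beside the 29.1% of all tested genes called lower and the 29.3% called higher. The lists too were chosen with earlier results of these data known, so their shares describe them and test nothing. Among 26 other ER chaperones and co-chaperones, 11 (42.3%) were called lower and 3 (11.5%) higher, with a median log2 fold change of -0.15. Dnajc3, a J-domain co-chaperone of BiP that also restrains PERK, had 61.5 ± 1.17 CPM in MCKO and 118.6 ± 5.10 CPM in controls (-0.89 on the log2 scale, SE 0.045, adjusted p = 3.91e-07 by edgeR). Hyou1, the nucleotide exchange factor GRP170, had 134.9 ± 1.40 CPM in MCKO and 241.8 ± 6.23 CPM in controls. Dnajb11, the J-domain protein ERdj3, had 82.5 ± 1.94 CPM in MCKO and 145.7 ± 0.16 CPM in controls. Manf, an ER protein that binds BiP, had 74.9 ± 1.20 CPM in MCKO and 130.5 ± 4.44 CPM in controls. These 4 falls, of -0.89 to -0.74 on the log2 scale, were of the size of that of Hspa5.

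Of 20 tested disulfide isomerases and oxidases, 8 (40.0%) were called lower and 6 (30.0%) higher, the second share near that of all tested genes, with a median of 0.05. Ero1l, the oxidase that recharges disulfide isomerase, rose to 477.2 ± 13.1 CPM in MCKO, against 118.5 ± 8.62 CPM in controls (2.07 on the log2 scale, SE 0.054, adjusted p = 6.57e-09 by edgeR). P4hb, the founding disulfide isomerase and a subunit of collagen prolyl hydroxylase, had 925.0 ± 12.5 CPM in MCKO and 683.2 ± 23.3 CPM in controls. Pdia6 and Txndc11 were lower, at -0.47 (SE 0.041) and -0.52 (SE 0.044).

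Genes of N-glycan folding and quality control gave 11 of 20 (55%) called lower and 1 higher, at a median of -0.20. Mlec, a lectin for glycans that still carry glucose, had 410.2 ± 0.58 CPM in MCKO and 630.3 ± 5.78 CPM in controls. Uggt1, the enzyme that marks misfolded glycoproteins for another round with calnexin and calreticulin, was at -0.46 (SE 0.046), the mannosidase-like Edem3 at -0.59 (SE 0.065) and the cargo lectin Lman2 at -0.45 (SE 0.053).

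Genes of ER-associated degradation were listed without Herpud1, which acts in the same process. Of 30 tested, 8 (26.7%) were called lower, near the share of all tested genes. In the other direction 6 (20%) were called higher, below the share of all tested genes, and the median was -0.03. Vcp, the ATPase that pulls proteins from the ER membrane, had 578.8 ± 5.51 CPM in MCKO and 926.0 ± 13.8 CPM in controls, and a near-identical retrocopy of it held 4 to 22 counts per library. Its cofactor Nploc4 was at -0.50 (SE 0.044) and the J-domain gene Dnajb14 at -0.65 (SE 0.058), while the rhomboid protease gene Rhbdd1 was at 0.82 (SE 0.061). With library totals alone, 13 of the list were called lower.

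Of 13 tested sensors and transducers, which include Xbp1 and Atf6, 5 (38.5%) were called higher and 3 (23.1%) lower. Of the sensor genes, named after their values were seen, Ern1 was called higher at 0.28 (SE 0.067, adjusted p = 0.0052 by edgeR). Eif2ak3 was not called, at 0.05 (SE 0.060, adjusted p = 0.495 by edgeR). Creb3l2 and Creb3l1, membrane-bound transcription factors related to ATF6, were higher at 0.52 (SE 0.042) and 0.76 (SE 0.087). Atf6b, the relative of Atf6, was lower at -0.48 (SE 0.096), and Traf2, an adaptor of IRE1, at -0.31 (SE 0.074). With library totals alone the split was 3 higher and 5 lower. The ATF4 and CHOP arm was mostly called higher, with 17 of 22 (77.3%) called higher, 3 (13.6%) lower and a median of 1.66. Trib3, a pseudokinase induced by ATF4 and CHOP, had 71.7, 74.0 and 78.2 CPM in MCKO and 2.26, 2.28 and 2.05 CPM in controls. The glutathione-degrading Chac1 was at 5.70 (SE 0.12), the secreted glycoprotein gene Stc2 at 3.76 (SE 0.077) and the lipoprotein receptor gene Vldlr at 2.96 (SE 0.045). Atf4 itself, named after its values were seen, had 315.0, 318.5 and 320.6 CPM in MCKO and 141.9, 139.5 and 134.4 CPM in controls.

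Genes of entry into and exit from the ER followed. Of 25 translocon and signal peptide genes 11 (44.0%) were called lower and 2 (8.0%) higher, and of 28 genes of vesicle export and retrieval 12 (42.9%) lower and 3 (10.7%) higher. Sec11c, a catalytic subunit of signal peptidase, was at -0.77 (SE 0.074), Srp14 of the signal recognition particle at -0.47 (SE 0.050) and the translocon gene Sec61a1 at -0.40 (SE 0.043), while its paralogue Sec61a2 was at 0.44 (SE 0.043). Preb, which starts vesicle coat assembly, was at -0.77 (SE 0.060), and the coat genes Sec23b and Sec13 at -0.60 (SE 0.048) and -0.62 (SE 0.062). Kdelr3, a receptor that returns chaperones with a KDEL tail to the ER, was higher, at 27.7 ± 0.61 CPM in MCKO and 11.96 ± 0.72 CPM in controls.

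Chaperones of other compartments were read beside those of the ER. Of 14 mitochondrial chaperones and proteases 7 (50%) were called lower and 2 (14.3%) higher, at a median of -0.13. The chaperonin genes Hspd1 and Hspe1 were lower at -0.67 (SE 0.042) and -0.57 (SE 0.047) and the protease gene Htra2 at -0.50 (SE 0.050), while the protease gene Lonp1 was higher at 1.15 (SE 0.048). Of 23 cytosolic chaperones 10 (43.5%) were called lower and 9 (39.1%) higher, at a median of -0.06. Ahsa1, an activator of HSP90, was at -0.86 (SE 0.051), Dnaja1, which has a near-identical copy, at -0.61 (SE 0.038) and the chaperonin subunit Cct3 at -0.50 (SE 0.037). Hspa1a, the stress-induced HSP70 gene, was at 3.27 (SE 0.20), and its sequence is shared with Hspa1b, so their reads may be divided. The split of the cytosolic list changed with the scaling, to 4 higher with library totals alone.

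**Figure D5:**
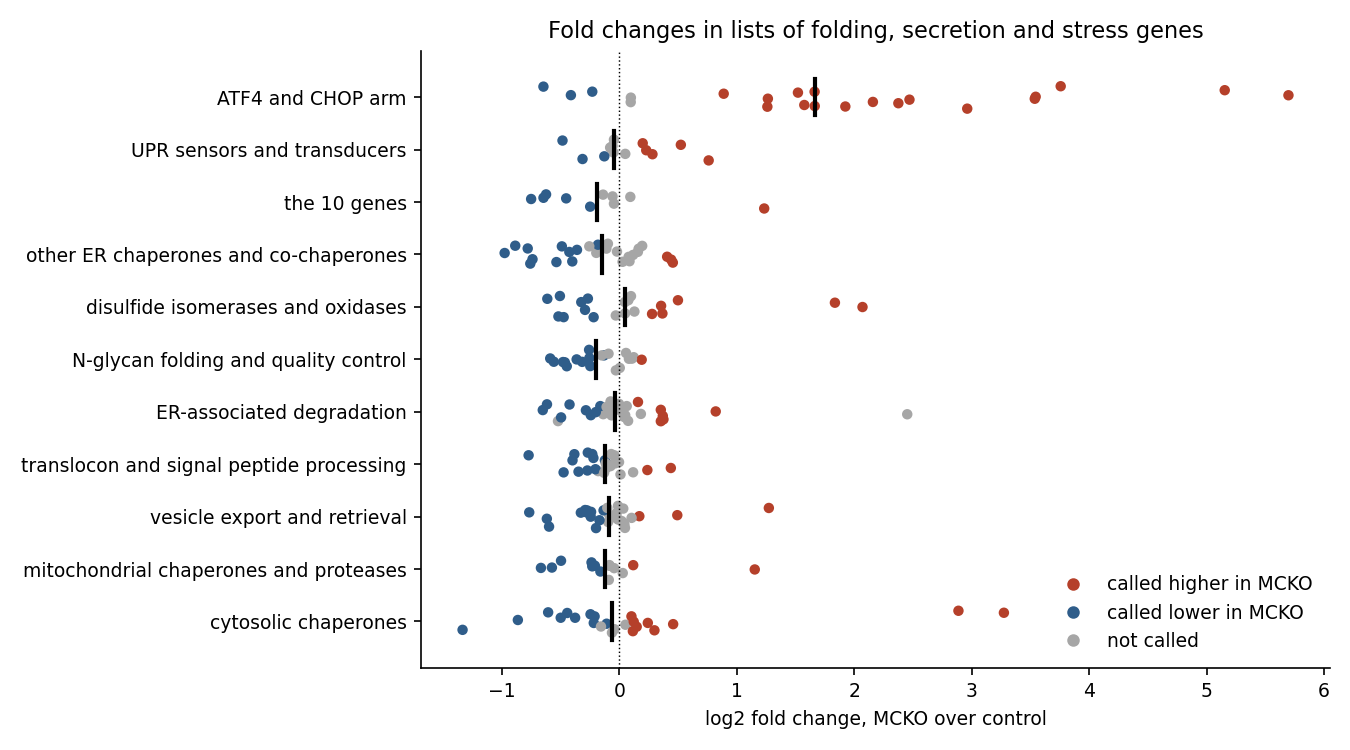
Log2 fold change, MCKO over control (horizontal axis), of each tested gene in 11 lists; points are genes coloured by call, and the black bar is the list's median. The ATF4 and CHOP arm has a median of 1.66, and the medians of the other lists lie between -0.20 and 0.05.

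Markers of the cell types in these hearts differed between the groups too, and their part in the values above was not tested. Their counts are to be read beside the 29.3% of all tested genes called higher and the 29.1% called lower. Of 15 cardiomyocyte markers 6 were called higher and 2 lower, and their summed level was 46695 to 48403 CPM in MCKO and 40039 to 43911 CPM in controls. Of 15 endothelial and endocardial markers 11 were higher and 2 lower, with sums of 1639 to 1662 CPM in MCKO and 1389 to 1421 CPM in controls. All 12 primitive red cell markers were higher, with sums of 6034 to 6394 CPM in MCKO and 2984 to 3182 CPM in controls. All 13 tested foregut and pharyngeal markers were higher, with sums of 637 to 709 CPM in MCKO and 194 to 214 CPM in controls. The epithelial keratin gene Krt19 made up most of that sum in MCKO, at 394.6 ± 25.1 CPM, against 42.6 ± 3.15 CPM in controls (SD, n = 3 each). The keratin genes Krt8 and Krt18 were at 165.3 ± 9.09 and 90.5 ± 2.4 CPM in MCKO and at 108.6 ± 6.69 and 50.5 ± 2.16 CPM in controls. Together with Krt19 they made up most of the sum in both groups. Of 12 tested liver bud and yolk sac markers 9 were lower and 1 higher, with sums of 12.3 to 13.5 CPM in MCKO and 30.1 to 34.2 CPM in controls. Afp, the most abundant of these markers by mean level, had 6, 0 and 3 counts in MCKO and 334, 204 and 363 counts in controls. Alb and Fgb were at 0 counts in every MCKO library, and their control levels are not given here. The 1 called higher was Rbp4, at 4.97 ± 0.32 CPM in MCKO and 1.14 ± 0.23 CPM in controls. Of 12 tested mesenchyme and neural crest markers 8 were lower and 1 higher, with sums of 227 to 236 CPM in MCKO and 565 to 593 CPM in controls. The fibrillar collagen gene Col3a1 had 78.1 ± 1.66 CPM in MCKO and 273.3 ± 6.32 CPM in controls. Of 9 tested epicardial markers 7 were lower and none higher, with sums of 89.4 to 91.4 CPM in MCKO and 220.4 to 232.1 CPM in controls. Of 5 tested leukocyte markers 2 were lower and none higher, with sums of 5.44 to 6.87 CPM in MCKO and 16.8 to 17.8 CPM in controls.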

How the data were processed

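RNA of whole hearts was made into stranded TruSeq mRNA libraries, per the labels' protocols. The authors deposited unscaled estimated counts, 1 whole number for each Ensembl gene and library. The submitters' processing notes name kallisto and mm10. The sources used here give no versions, no transcript set and no account of how transcript estimates became whole counts of genes. Gene symbols, coordinates and transcript lengths came from GENCODE M21 on GRCm38, the same assembly as mm10, and promoter sequences from RefSeq on GRCm38.p6. The control columns carry the sample titles, and the knockout columns, named CKO, were matched to the MCKO titles by number.

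Counts were fitted for all genes at once in edgeR 4.0.16 (R 4.3.3): filterByExpr left 14697 genes, TMM factors scaled the libraries, and robust quasi-likelihood F tests compared MCKO with control with no covariate. P-values are 2-sided and Benjamini-Hochberg adjusted over these genes. Log2 fold changes are MCKO over control, and their SE is the change divided by the root of F. CPM values use library totals, without TMM. A count of 0 allows up to 3 counts, 0.0876 to 0.156 CPM, and floors cover counting error only. Alternatives used DESeq2 1.42.0 and limma-voom 3.58.1, other size factors and filters, a replicate block, and each library left out. Replicates differed by 3.56 to 15.3 in chi-square per degree of freedom, against 88.6 to 146.6 between groups, so none was taken for a copy. Near-identical copies were sought with minimap2 2.31 at 95% identity over 80% of the shorter transcript, and none of the 10 genes had one.

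The 10 genes and the lists were chosen with earlier results of these data known. Named are all 10 genes, Cdc42, and up to 4 called genes of each list by smallest p; marker lists are given as sums, counts and some of the 3 most abundant genes. Genes with an ERSE or ERSE-II match are named from the promoter search. Alb and Fgb were chosen after their values were seen. List symbols with no row in the table were not analysed here.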

Additional observations from a re-analysis of the deposited data

How the results depend on the processing

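The calls of Hspa5, Calr, Sdf2l1, Pdia4, Hsp90b1 and Herpud1 held under all 15 alternatives, as did that of Cdc42. Leaving out each library gave -0.77 to -0.73 for Hspa5, -0.67 to -0.63 for Calr, -0.70 to -0.52 for Sdf2l1, -0.48 to -0.43 for Pdia4, -0.29 to -0.22 for Hsp90b1 and 1.19 to 1.26 for Herpud1 on the log2 scale, with 6 to 7 of the 10 genes and 7452 to 8695 of all genes called. A threshold of 0.01 left 6664 calls. Canx, at -0.14 and adjusted p = 0.0534 by edgeR, was called by DESeq2 (-0.14, adjusted p = 0.0383), with relative log expression size factors (-0.14, adjusted p = 0.0494) and with library totals alone (-0.20, adjusted p = 0.0129). Leaving out each library gave -0.20 to -0.087 for Canx (edgeR adjusted p 0.00334 to 0.169) and -0.017 to 0.30 for Dnajb9. The lower Dnajb9 value, without control replicate 1, was a reversal. With the higher value, without control replicate 3, Dnajb9 was called higher. In that setting the genes called higher were 2 of the 10, and 1 to 2 over these settings. Xbp1 was called with library totals alone, at -0.12 (adjusted p = 0.0372). The cause of these changes was not tested.

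Library totals alone moved the median of all genes to -0.061, and 42.6% of the calls were then higher, against 50.2% with TMM. In the lists they gave 3 higher and 5 lower for the sensors and transducers, 0 higher for N-glycan quality control (also 0 by DESeq2), 13 lower for ER-associated degradation, 1 higher for mitochondrial chaperones and 4 higher for cytosolic chaperones. With the replicate block, 7765 genes were called, all 6 calls among the 10 genes stood, and 1 mitochondrial and 5 cytosolic chaperone genes were called higher. Same-numbered libraries correlated at -0.0047, 0.022 and -0.13 in their deviations, and not each correlated best with its own number, so the numbers were not taken as pairs. Summing near-identical copies could not be run, since none was found for the 10 genes. The SD of Canx was 19.6 CPM in MCKO and 63.6 CPM in controls.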

Other observations

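Among genes named here after their values were seen, several close paralogues of the ER differed in direction. Sdf2, the relative of Sdf2l1, was higher, at 40.7 ± 3.18 CPM in MCKO and 32.1 ± 2.50 CPM in controls (SD, n = 3 each). Creld1 was higher at 0.44 on the log2 scale (SE 0.075) where Creld2 was lower at -0.98 (SE 0.064). The oxidase gene Ero1lb, expressed at a low level, had 3.86 ± 0.41 CPM in MCKO and 6.15 ± 0.93 CPM in controls, the opposite direction to Ero1l. Kdelr1 had 73.1 ± 1.28 CPM in MCKO and 73.9 ± 3.13 CPM in controls and was not called (edgeR adjusted p = 0.45), beside Kdelr3, which was higher. Each of these differences is between the groups for 1 gene, and no difference between paralogues was tested.

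Hspa8, the constitutive HSP70 gene of the cytosol, was level between the groups as deposited, at 2103, 2092 and 2140 CPM in MCKO and 2178, 2112 and 2089 CPM in controls (edgeR adjusted p = 0.254). Its retrocopy Gm15459, 99.7% identical over its length, held 60, 20 and 24 counts in MCKO and 26709, 18540 and 31178 counts in controls. Summed with its copies in the table, Hspa8 came to 2105, 2093 and 2141 CPM in MCKO and 3168, 3075 and 3059 CPM in controls, so that the groups no longer overlap. Estimated counts divide reads between such copies, and which of these values follows Hspa8 RNA was not tested. The copy search, at its thresholds, found no such copy for the 10 genes followed here.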
